A study of Mus musculus with 6 samples.

Results

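The kinesins are a family of proteins that step along microtubules or take them apart. The members described here are the genes whose symbol in the deposited tables is Kif followed by a digit, 36 of the 26771 genes that the tables list. Of these, 11 were set apart as mitotic kinesins (Kif2c, Kif4, Kif11, Kif14, Kif15, Kif18a, Kif18b, Kif20a, Kif20b, Kif22 and Kif23) and 25 are called the other members. The name does not always mark a motor: Kif1bp encodes a protein that binds kinesins, and Kif22-ps is a processed pseudogene, which leaves 34 genes for motors. The other members are not all carriers of cargo either, since Kif2a and Kif24 encode motors of the depolymerase family to which Kif2c also belongs.

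Messenger RNA was measured in γδT17 cells, the interleukin-17-producing kind of γδ T cell, taken from spleens of C57BL/6 mice of the genotype TCRβ-/-, which lack the β chain of the T cell receptor. Both groups carry this deletion. The Initial group was sorted from splenocytes before culture, and the Induced group was harvested on day 8 after stimulation with a protocol built around IL-1β plus IL-23 and then purified as T cells with a kit. Culture and the way cells were isolated therefore cannot be told apart. Per the labels, most of the Induced cells expressed IL-17A. There were 3 libraries in each group, 1 from each of mice A, B and C, and the age and sex of the mice are not given in the sources used here.

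During division, kinesins build and shape the spindle, push and align chromosomes, and organise the midzone where the daughter cells separate. Between divisions, other kinesins carry vesicles, mitochondria and endosomes towards the plus ends of microtubules, and in T cells some act on the microtubules that turn towards the contact with another cell. Many genes of late mitosis carry in their promoters the cell cycle genes homology region (CHR), a short element to which the DREAM and MuvB complexes bind, often next to CCAAT boxes bound by the factor NF-Y.

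All levels are FPKM, fragments scaled to transcript length and library size, so levels of different genes can be compared per length. The depth, estimated from the steps between low values, was about 19300000 to 23500000 fragments per library, and at an FPKM of 1 counting alone then gives a transcript of 2 kb a coefficient of variation of 14.6 to 16.1%. The labelled cell type was checked against its markers: 8 T cell genes summed to 2785 to 3036 FPKM in the Initial and to 2020 to 2113 FPKM in the Induced libraries, and Trdc, the constant part of the δ chain, averaged 327 and 335 FPKM. At an adjusted p under 0.05, 1 of the 8 was called higher and 3 lower, beside 37.3% and 33.1% of tested genes. Lck fell the most of them, from an average of 919.5 to 288.6 FPKM. Markers of other splenic cells were also present in the Initial libraries: 8 B cell genes summed to 3099 to 3625 FPKM there and to 83.8 to 162 FPKM after culture, 9 macrophage and myeloid genes to 617 to 1183 and 6.28 to 6.65 FPKM, and 10 red cell and platelet genes to 1219 to 1746 and 1.41 to 1.76 FPKM. Of these genes, Alas2, Klf1 and Gp9 were listed in none of the Induced libraries. The part of these marker differences in the kinesin results was not tested. In bulk samples, fewer cells of a type and less RNA per cell cannot be told apart.

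Sequences near the transcript starts are shown first, because most of the mitotic members hold a short motif there that the choice of members did not use. RefSeq promoters (GRCm38.p6, from 250 bases before to 50 bases after the start) were found for 28 of the 36 members, among them 10 of the 11 mitotic kinesins. The letters TTTGAA, a core form of the CHR, occurred on either strand in 9 of these 10 promoters, against 12.4% of the 10677 promoters of tested genes and 2 of the 22 promoters of the other members. In 7 of the 10 the whole motif lay within 25 bases of the start, a distance chosen after the positions were seen, against 1.54% of the promoters of tested genes and 1 of 22 among the other members. The windows of 30 bases below show these sites, read on the strand that holds TTTGAA, with the motif in capitals.
Kif11 (chr19:37376351-37376380, minus strand): ccgcgcctcaatTTTGAAaaatggagacga
Kif15 (chr9:122951050-122951079, minus strand): gatggccgcagaTTTGAAtttggcgcccca
Kif22 (chr7:127042420-127042449, plus strand): ccgcttctctctTTTGAAttaccggggccc
Kif18b (chr11:102925104-102925133, minus strand): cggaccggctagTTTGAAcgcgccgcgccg
Kif20b (chr19:34922353-34922382, plus strand): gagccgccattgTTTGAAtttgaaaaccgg
Kif23 (chr9:61946780-61946809, minus strand): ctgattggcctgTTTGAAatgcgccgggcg
Kif4 (chrX:100626072-100626101, plus strand): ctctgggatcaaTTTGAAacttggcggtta
In Kif11 and Kif15 the motif began at the same distance, 19 bases before the RefSeq start, and in Kif22 17 bases before it. These distances depend on the start used. The RefSeq start lay 35, 51 and 328 bases inside the GENCODE gene for Kif15, Kif22 and Kif4. For Kif18b, Kif20b, Kif11 and Kif23 this value was 0, -3, -21 and -25, where minus means outside the gene. The count within 25 bases was not taken from the GENCODE starts. In Kif20b the motif occurred a second time directly after the first.

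The motif had other positions or was missing in the remaining mitotic promoters. In Kif14 and Kif2c it lay farther upstream, but the RefSeq starts used there are 1505 and 3867 bases inside the GENCODE genes, so these windows may not be the main promoters. Kif18a held neither TTTGAA nor CCAAT in its window. CCAAT, searched on both strands, occurred in 6 of 10 mitotic promoters, 38.4% of the promoters of tested genes and 7 of 22 promoters of the other members. Both motifs together occurred in 6 of 10 mitotic promoters, 5.13% of the promoters of tested genes and 1 of 22 promoters of the other members. In 24 promoters of a list of mitotic partner genes, described further on, TTTGAA occurred in 18 and lay within 25 bases of the start in 7. Among promoters of all genes that rose at least 2-fold, 19.3% held TTTGAA and 4.48% held it within 25 bases of the start. A match to these letters is a description and does not show that a factor binds.

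The 150 bases before the start are shown for 3 mitotic genes that differ in these motifs, with matches to the CHR letters or the CCAAT box on either strand in capitals and the sequence written in the direction of the gene. They cover chr19:37376232-37376381 on the plus strand for Kif11, chr7:127042421-127042570 on the minus strand for Kif22 and chr2:109280588-109280737 on the plus strand for Kif18a.
Kif11: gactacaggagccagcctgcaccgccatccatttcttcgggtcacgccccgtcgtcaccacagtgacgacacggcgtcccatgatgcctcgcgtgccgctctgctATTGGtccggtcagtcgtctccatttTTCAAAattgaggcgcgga
Kif22: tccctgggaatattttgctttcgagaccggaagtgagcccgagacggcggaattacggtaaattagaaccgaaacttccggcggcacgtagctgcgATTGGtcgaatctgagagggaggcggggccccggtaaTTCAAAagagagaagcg
Kif18a: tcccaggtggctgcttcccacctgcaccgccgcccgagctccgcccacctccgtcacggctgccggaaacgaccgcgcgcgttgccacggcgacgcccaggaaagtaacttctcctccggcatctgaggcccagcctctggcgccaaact
Kif11 and Kif22 share the order of a CCAAT box followed by the CHR letters close to the start, and Kif18a has neither. Kif18a had the smallest ratio between the groups (3.85). Kif20b, with TTTGAA 2 times within 25 bases of the start, had the next smallest (4.81). Whether the motifs go with the size of the change was not tested.

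**Figure D1:**
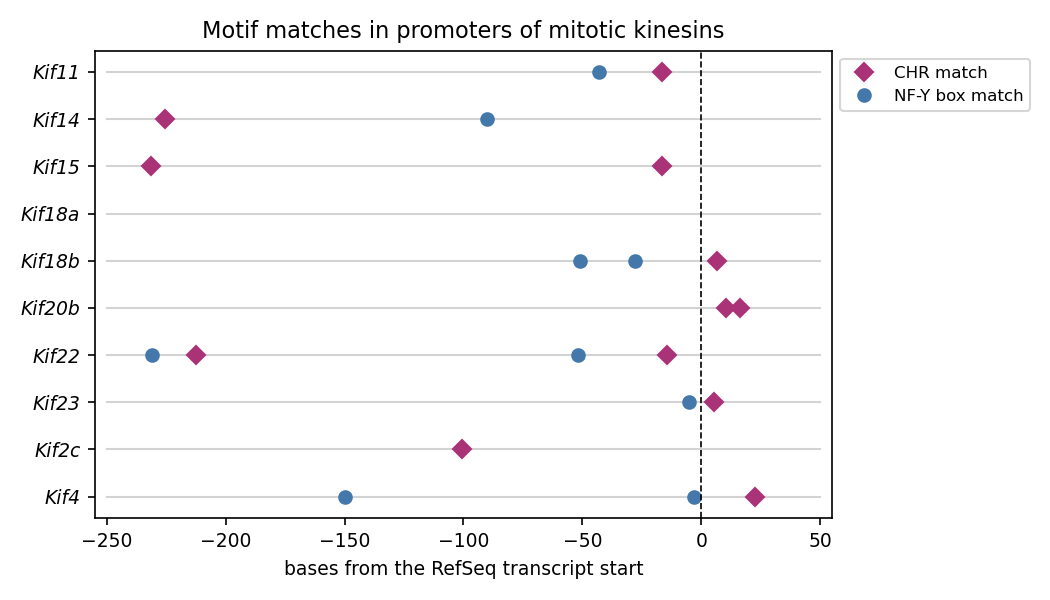
Positions of motif matches in the RefSeq promoters of 10 mitotic kinesins, in bases from the transcript start (dashed line), with CHR matches as diamonds and CCAAT boxes, bound by NF-Y, as circles. In 7 genes a diamond sits within 25 bases of the start, and Kif18a has no match.

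All 11 mitotic kinesins rose in Induced cells. In each of them every Induced library stood above every Initial library, where 40.0% of the 11265 tested genes showed this pattern in this direction. At an adjusted p under 0.05, 11 of 11 were called higher, against 37.3% of tested genes, and 11 of 11 were called with at least a 2-fold rise on the log2(FPKM + 1) scale, against 12.0% of tested genes. Their median log2 fold change was 3.40, beside 0.03 over all tested genes. Kif14 passed the filter on low values only through the Induced libraries, so a difference was built into its being tested.

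Kif11 (ENSMUSG00000012443, chromosome 19, 37376403 to 37421859, GRCm38) encodes the motor that slides spindle microtubules apart and so makes the spindle bipolar. It stood at 3.86, 3.74 and 4.62 FPKM in the Initial libraries of mice A, B and C (the order used from here on) and at 64.6, 70.0 and 60.8 FPKM in the Induced ones. The groups were far apart, with Induced library B highest, and the log2 fold change was 3.71 (adjusted p = 6.3e-08, SE 0.09). Kif15 (ENSMUSG00000036768, chromosome 9, 122951046 to 123018733) encodes a motor that can hold the bipolar spindle together beside Kif11. Its levels were 2.15, 1.87 and 2.74 FPKM before culture and 31.1, 33.5 and 29.9 FPKM after it, a log2 fold change of 3.33 (adjusted p = 1.9e-07, SE 0.11). Both spindle motors thus moved by overlapping ratios, 13.2 to 18.7 between single libraries for Kif11 and 10.9 to 17.9 for Kif15.

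The motors that act on chromosome arms and on microtubule ends include both the largest and the smallest ratios. Kif22 (ENSMUSG00000030677, chromosome 7, 127027729 to 127042471), which pushes chromosome arms away from the poles, had the highest level of all members in the Induced libraries, with 116, 127 and 112 FPKM against 6.19, 7.26 and 7.12 FPKM in the Initial libraries. Its log2 fold change was 3.92 (adjusted p = 4.1e-08, SE 0.08). Kif4 (ENSMUSG00000034311, chromosome X, 100625737 to 100727214), a motor of condensed chromosomes that also sets the length of the midzone, had 1.21, 0.914 and 1.37 FPKM before and 21.6, 22.7 and 21.2 FPKM after culture. That is a log2 fold change of 3.40 (adjusted p = 1.3e-07, SE 0.11). Of its 5514 exonic bases, 832 are shared with Pdzd11 on the opposite strand. Pdzd11 averaged 15.1 FPKM in the Initial and 35.1 FPKM in the Induced libraries. Whether counting used strand is not stated in the labels, so reads in the shared stretch cannot be told apart.

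Kif2c (ENSMUSG00000028678, chromosome 4, 117159639 to 117182639) encodes a depolymerase that frees wrongly attached microtubules from kinetochores. Initial libraries had 1.99, 2.13 and 2.21 FPKM and Induced libraries 43.4, 54.5 and 47.4 FPKM of it, and only 32 of the tested genes had a larger log2 fold change than its 3.99 (adjusted p = 6.0e-08, SE 0.10). Kif18b (ENSMUSG00000051378, chromosome 11, 102905529 to 102925124), which acts on astral microtubules, went from 1.28, 1.33 and 1.56 FPKM to 33.7, 42.5 and 33.0 FPKM, a log2 fold change of 3.96 (adjusted p = 1.1e-07, SE 0.12). Its relative Kif18a (ENSMUSG00000027115, chromosome 2, 109280738 to 109341747), which damps the movements of aligned chromosomes, had 3.13, 3.39 and 3.23 FPKM and then 13.0, 13.2 and 11.4 FPKM, with a log2 fold change of 1.67 (adjusted p = 2.0e-06, SE 0.09). Kif18a thus started above Kif18b in every Initial library and ended below it in every Induced library.

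The motors of the midzone and of the final separation of daughter cells rose by unequal amounts. Kif20a (ENSMUSG00000003779, chromosome 18, 34624613 to 34633277), which brings the chromosomal passenger complex to the midzone, had 2.93, 2.54 and 3.58 FPKM in Initial and 52.6, 60.1 and 51.6 FPKM in Induced libraries, a log2 fold change of 3.80 (adjusted p = 1.1e-07, SE 0.11). Of its 4338 exonic bases, 1271 overlap Cdc23 on the opposite strand. Cdc23 averaged 16.3 FPKM in the Initial and 25.4 FPKM in the Induced libraries, so the level of Kif20a is uncertain. Kif23 (ENSMUSG00000032254, chromosome 9, 61915905 to 61946774), which forms the centralspindlin complex with Racgap1, went from 6.31, 6.18 and 7.34 to 43.7, 49.1 and 41.3 FPKM, with a log2 fold change of 2.59 (adjusted p = 2.8e-07, SE 0.09). Its partner gene Racgap1 had a higher level at the outset and a smaller change, from 62.2 ± 7.38 to 156 ± 8.62 FPKM (SD, n = 3), and a log2 fold change of 1.32 (adjusted p = 8.6e-06, SE 0.10).

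Kif20b (ENSMUSG00000024795, chromosome 19, 34922361 to 34975745), a motor needed for cytokinesis, stood at 4.20, 4.32 and 4.13 FPKM before and 20.5, 21.2 and 19.2 FPKM after culture. The libraries of each group lay close together, and the log2 fold change was 2.03 (adjusted p = 3.3e-07, SE 0.08). Kif14 (ENSMUSG00000041498, chromosome 1, 136466343 to 136531511), which works with citron kinase at the midbody, was the least abundant mitotic member in both groups. It had 0.309, 0.366 and 0.298 FPKM in Initial and 3.31, 4.07 and 3.07 FPKM in Induced libraries, with a log2 fold change of 1.75 (adjusted p = 5.9e-06, SE 0.12), which the added 1 FPKM compresses at such low levels: it was 3.07 with 0.1 FPKM added instead.

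**Figure D2:**
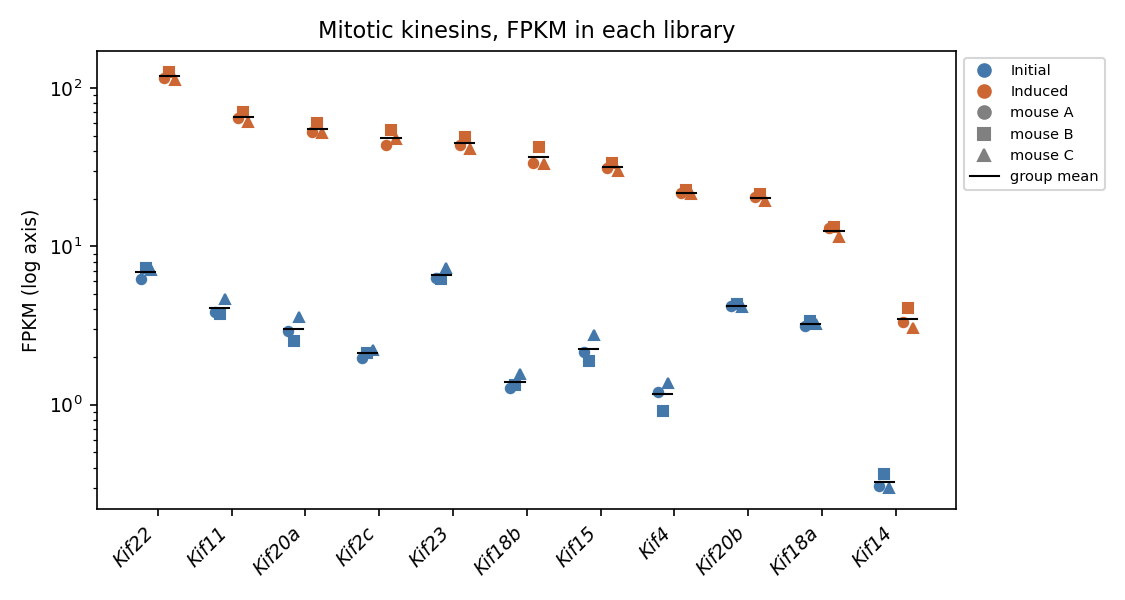
FPKM of the 11 mitotic kinesins in each library on a log axis, with Initial libraries in blue, Induced libraries in orange, mice as symbols and group means as black lines. For every gene the 3 Induced libraries lie above the 3 Initial libraries, and the square of mouse B is the highest Induced point.

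The ratio of the group means, which has no added constant, ordered the mitotic members from Kif18a (3.85) and Kif20b (4.81) over Kif23 (6.77) and Kif14 (10.7) to Kif15, Kif11, Kif22, Kif20a and Kif4 (14.0 to 18.7), Kif2c (23.0) and Kif18b (26.2). The ratios of single libraries ran from 3.36 to 4.22 for Kif18a, from 4.44 to 5.14 for Kif20b and from 5.63 to 7.95 for Kif23, so these 3 did not overlap each other or the rest. Those of Kif15, Kif11, Kif22, Kif20a and Kif4 overlapped (10.9 to 24.8 over all of them), and so did those of Kif2c (19.6 to 27.4) and Kif18b (21.1 to 33.3). The exons shared with Cdc23 and Pdzd11 leave the ratios of Kif20a and Kif4 uncertain. The order of levels changed with these ratios: Kif22 was the most and Kif14 the least abundant mitotic member in both groups, while Kif20b went from rank 3 to 9 and Kif2c from rank 8 to 4.

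The mitotic members also varied together among the Induced libraries. Induced library B had the highest value of all 11, where it was highest for 39.0% of the genes called higher, and Induced library C the lowest value of 10, where it was lowest for 45.5% of them. The differences were small, with library B 1.07 (Kif4) to 1.33 (Kif14) times above library C. In the Initial libraries, library C was highest for 7 of the 11 and library B for 4. The mitotic members summed there to 33.55, 34.04 and 38.19 FPKM in mice A, B and C. The share of all genes highest in each Initial library was not taken, so these counts cannot be judged against it.

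Genes that act beside the mitotic kinesins moved in the same direction. Of 27 listed partners, regulators and mitotic markers, 27 were called higher, beside 37.3% of all tested genes, with a median log2 fold change of 3.38 beside 0.03, and Induced library B was the highest Induced library for 24 of them. The kinase gene Aurkb and the cyclin gene Ccnb2 had the largest log2 fold changes of this list, 4.39 for Aurkb (adjusted p = 4.4e-08, SE 0.09) and 4.35 for Ccnb2 (adjusted p = 6.3e-08, SE 0.11). Of 6 kinesin genes not named Kif, 4 were tested, and 2 were called higher (Cenpe and Kifc1) and 2 lower (Kifc2 and Kifc3, described further on). Cenpe, the kinetochore motor that brings chromosomes to the spindle equator, went from 1.06 ± 0.124 to 17.5 ± 1.97 FPKM (SD, n = 3; log2 fold change 3.16, adjusted p = 2.2e-07, SE 0.11), and Kifc1, which focuses spindle poles, from 0.316 ± 0.0112 to 3.04 ± 0.744 FPKM (log2 fold change 1.60, adjusted p = 3.3e-05, SE 0.15). Kifc1 passed the filter on low values only through the Induced libraries, so a difference was built into its being tested. It may also share reads with its near-identical copy Kifc5b, which was not tested, so its level is uncertain. The untested genes of this list were Kifc5b, at or under 0.767 FPKM, and Stard9, a motor of the dividing cell that averaged 0.350 FPKM before and 0.205 FPKM after culture.

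Of the 25 other members, 11 passed the filter on low values. Of these 5 were called higher, 2 lower and 4 did not pass, beside 37.3% higher and 33.1% lower among all tested genes, and their median log2 fold change was 0.14. Called in either direction were 7 of 11, beside 70.4% of all tested genes, so a call by itself did not set these members apart. With at least a 2-fold change 2 were called higher and 1 lower, beside 12.0% and 13.2%. The groups did not overlap in 6 that were higher and 2 that were lower, beside 40.0% and 35.4%. Kif24, counted as higher each time, passed the filter only through the Induced libraries. Kif13b, called lower by less than 2-fold, passed it through the Initial libraries. The filter thus built in part of these counts. The remaining 14 were low in all libraries: 10 stayed under 1 FPKM everywhere, and Kif13a, Kif1c, Kif5c and Kif9 reached 1 FPKM in at least 1 library, up to 1.75 FPKM.

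The 3 tested kinesin-2 genes, whose products form a motor of Kif3a with Kif3b or Kif3c, rose. Kif3a (ENSMUSG00000018395, chromosome 11, 53567379 to 53601967) had 3.06, 2.64 and 2.82 FPKM before and 7.33, 8.05 and 5.10 FPKM after culture. The groups did not overlap, with Induced library C the lowest of its group, and the log2 fold change was 1.01 (adjusted p = 0.00058, SE 0.15). Kifap3, which links this motor to cargo and is not named by the rule for members, went from 1.77 ± 0.279 to 4.81 ± 0.789 FPKM (SD, n = 3; log2 fold change 1.06, adjusted p = 0.00023, SE 0.14).

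Kif3b (ENSMUSG00000027475, chromosome 2, 153291413 to 153333390) had 1.37, 1.51 and 1.64 FPKM before and 2.09, 2.06 and 3.15 FPKM after culture, and Induced library C was its highest value, the reverse of Kif3a. Its log2 fold change was 0.44 (adjusted p = 0.0253, SE 0.14), and the call was lost when mouse A (adjusted p = 0.0763) or mouse B (0.0628) was left out of the Initial group, or mouse C out of the Induced group (0.052, with a log2 fold change of 0.30), and with no filter (0.0507). Kif3c (ENSMUSG00000020668, chromosome 12, 3365132 to 3406494) had 2.46, 2.52 and 1.79 FPKM and then 3.65, 3.37 and 2.94 FPKM, with a log2 fold change of 0.41 (adjusted p = 0.0226, SE 0.13). It no longer passed when mouse C was dropped from the Initial group (0.0642), or mouse A (0.082) or mouse B (0.0608) from the Induced group. Of the 7406 exonic bases of Kif3c, 2617 are shared with the antisense gene 1110002L01Rik, which averaged 1.31 and then 2.28 FPKM. Reads in the shared stretch cannot be told apart. The fourth kinesin-2 gene, Kif17, stayed at or under 0.201 FPKM.

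Among kinesin-1 genes, Kif5b (ENSMUSG00000006740, chromosome 18, 6201002 to 6242174), the widely expressed heavy chain that carries mitochondria and vesicles, was the most abundant member before culture. It stood at 40.8, 43.4 and 39.3 FPKM in Initial and 47.1, 45.3 and 43.8 FPKM in Induced libraries. The groups did not overlap but lay close together, and the change did not pass (log2 fold change 0.14, adjusted p = 0.0906, SE 0.07). Among the alternatives it passed only when each library was scaled by its CD3 genes and Trdc (log2 fold change 0.36, adjusted p = 0.00371), a scaling that moved the median of all tested genes up by 0.20. The light chain gene Klc1, whose product ties cargo to Kif5b, did rise, from 17.9 ± 1.17 to 39.5 ± 3.19 FPKM (SD, n = 3; log2 fold change 1.10, adjusted p = 1.2e-05, SE 0.08). Kif5c stayed between 0.837 and 1.11 FPKM and Kif5a at or under 0.171 FPKM.

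Of the 3 tested kinesin-3 genes, whose products carry vesicles and endosomes, 1 fell and none was called higher. Kif13b (ENSMUSG00000060012, chromosome 14, 64647265 to 64809617), a carrier of signalling proteins that has also been studied at the T cell contact, fell. It had 2.003, 1.98 and 1.88 FPKM in Initial libraries and 0.837, 0.791 and 1.41 FPKM in Induced libraries, where library C was the highest. The log2 fold change of Kif13b was -0.57 (adjusted p = 0.00641, SE 0.14). Only 1 Induced library reached 1 FPKM, so Kif13b passed the filter on low values through the Initial libraries. A difference was thus built into its being tested. Kif16b, which moves early endosomes, had 7.58 ± 0.709 and 7.57 ± 0.905 FPKM (SD, n = 3; log2 fold change -0.0044, adjusted p = 0.975, SE 0.11). Kif1b, a carrier of mitochondria and vesicle precursors, had 6.94 ± 0.736 and 6.42 ± 0.679 FPKM (log2 fold change -0.10, adjusted p = 0.441, SE 0.11).

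Kif21b (ENSMUSG00000041642, chromosome 1, 136131389 to 136177998), which limits microtubule growth and helps T cells turn their centrosome towards a target, fell the most among tested members. Initial libraries had 7.08, 7.94 and 8.14 FPKM and Induced libraries 3.16, 2.50 and 4.35 FPKM, without overlap and with Induced library C nearest to the Initial group. The log2 fold change was -1.03 (adjusted p = 0.00058, SE 0.16). The summed marker levels of macrophages, red cells and B cells given above fell between the same groups as Kif21b and Kif13b, and their part in these falls was not tested.

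Outside the mitotic list, Kif24 (ENSMUSG00000028438, chromosome 4, 41390745 to 41464887) had the largest rise. Its product sits at centrioles and holds back the growth of cilia. It went from 0.266, 0.371 and 0.407 FPKM to 2.12, 2.88 and 3.46 FPKM, passing the filter only through the Induced libraries, with a log2 fold change of 1.49 (adjusted p = 4.9e-05, SE 0.15) and a ratio of group means of 8.11. Unlike the mitotic members it was highest in Induced library C. Kif2a, the depolymerase of spindle poles, had 4.88 ± 0.541 and 5.27 ± 0.337 FPKM (SD, n = 3) and did not pass (log2 fold change 0.09, adjusted p = 0.447, SE 0.11), and it shares 1229 exonic bases with Dimt1 on the opposite strand. The kinesin-binding protein gene Kif1bp (ENSMUSG00000036955, chromosome 10, 62538626 to 62578457) rose from 12.7, 15.4 and 13.2 to 27.6, 28.3 and 22.8 FPKM (log2 fold change 0.88, adjusted p = 0.00017, SE 0.11).

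**Figure D3:**
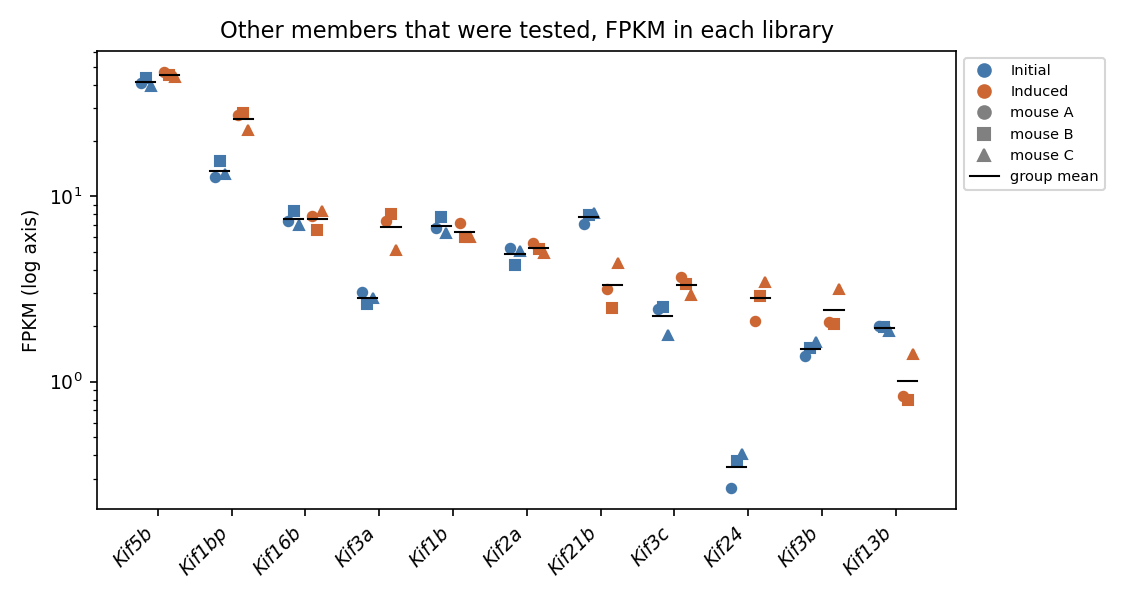
FPKM of the 11 other members that were tested, in each library on a log axis, with colours, symbols and lines as in the plot of mitotic levels. Kif5b, Kif16b, Kif1b and Kif2a stay near one level, Kif3a, Kif24 and Kif1bp lie higher in the Induced libraries, and Kif21b and Kif13b lie lower.

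**Figure D4:**
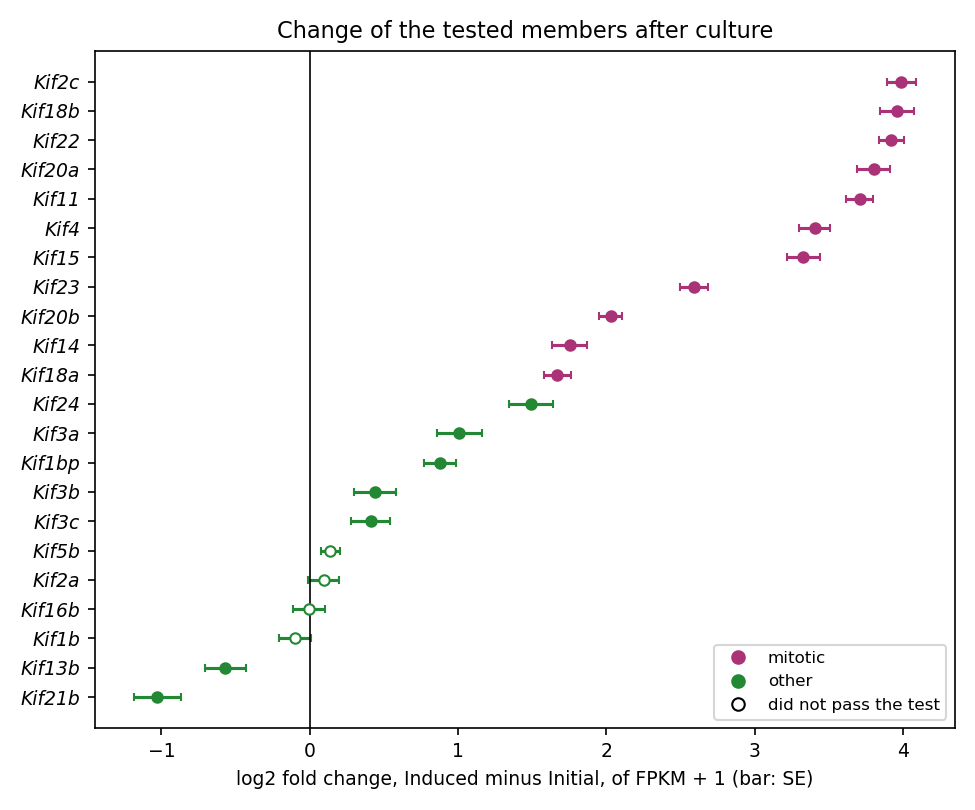
Log2 fold change of FPKM + 1, Induced minus Initial, with its standard error for the 22 tested members, mitotic in purple and other in green, and open circles for those that did not pass the test. The mitotic members lie between 1.67 and 3.99 and the other members between -1.03 and 1.49.

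Summed over the 34 motor genes, kinesin transcripts went from 114, 119 and 116 FPKM in the Initial to 535, 585 and 518 FPKM in the Induced libraries. The mitotic members made up 30.2 ± 2.27% of this sum before and 83.7 ± 1.22% after culture (SD, n = 3). Their own sum went from 35.3 ± 2.55 to 457 ± 35.6 FPKM, a ratio of 13.0, while the other 23 motors had 81.4 ± 3.51 and 88.8 ± 2.51 FPKM, a ratio of 1.09. Kif5b alone held 35.3 ± 1.35% of the sum in Initial cells and 8.34 ± 0.546% in Induced cells.

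**Figure D5:**
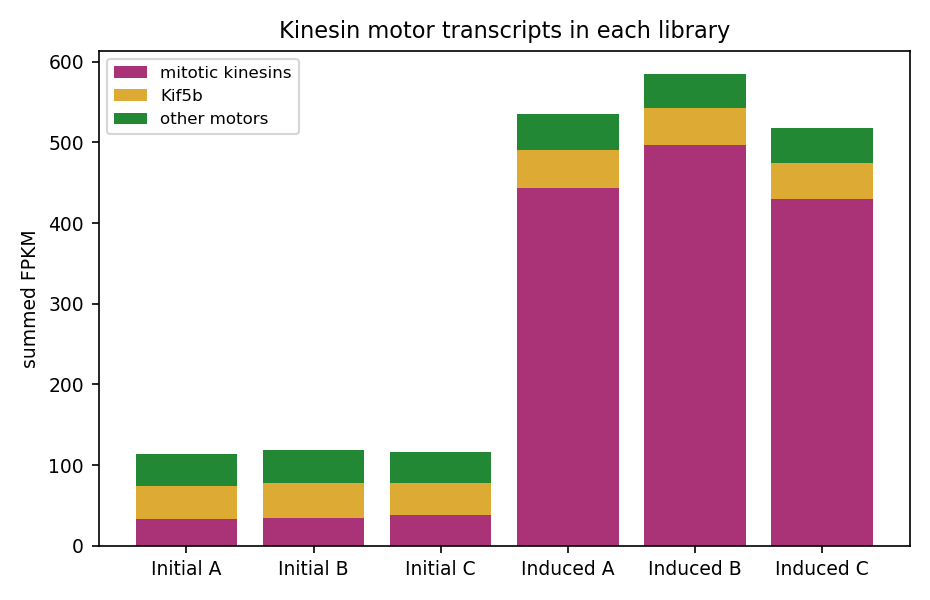
Summed FPKM of the 34 kinesin motor genes in each library, split into mitotic kinesins, Kif5b and the other motors. The mitotic share lies between 28.5 and 32.8% before culture and between 82.9 and 85.1% after it.

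Genes that work with the transport kinesins were called in both directions, as were tested genes at large (37.3% higher and 33.1% lower, with a median log2 fold change of 0.03). Of 15 tested light chain and adaptor genes, Kif1bp among them, 4 were called higher and 5 lower, with a median log2 fold change of -0.03, which is near those shares and is no result about the list. Klc1 and Kifap3 rose most, and Mapk8ip3 (10.8 ± 1.11 to 6.70 ± 0.652 FPKM) and Klc4 (8.40 ± 0.858 to 5.57 ± 0.602 FPKM) fell most. Of 28 tested genes of the minus-end motor dynein and its cofactor dynactin, 14 were called higher and 6 lower, beside the same 37.3% and 33.1%, with a median of 0.17. Nde1 (31.9 ± 0.703 to 83.2 ± 3.44 FPKM) and Dctn1 (40.3 ± 0.960 to 94.6 ± 13.7 FPKM) rose most, while Ndel1 (102 ± 6.97 to 41.8 ± 0.675 FPKM) and Actr1b (37.1 ± 2.69 to 25.2 ± 1.84 FPKM) fell most. Nde1 and Ndel1, related genes whose products bind dynein, thus moved in opposite directions.

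Among kinesins not named by the rule, Kifc3 and Kifc2, which move towards minus ends, fell. Kifc3 went from 6.93 ± 0.239 to 0.551 ± 0.356 FPKM (SD, n = 3; log2 fold change -2.38, adjusted p = 7.2e-06, SE 0.17) and Kifc2 from 2.60 ± 0.662 to 1.02 ± 0.221 FPKM (log2 fold change -0.82, adjusted p = 0.00192, SE 0.16). Kifc3 was tested only through the Initial libraries, where it was high, so the direction of its call was built in by the filter. Kifc2 reached 1 FPKM in only 1 Induced library, so it also passed the filter through the Initial libraries. In the list of cilium and Hedgehog genes, in which kinesin-2 and Kif7 act, 8 of 16 tested genes were called higher and 2 lower, beside 37.3% and 33.1% of all tested genes, with a median of 0.28. These counts include Ift43 and Ift122, which passed the filter only through the Induced libraries, and Ift88, which passed it only through the Initial libraries, so they support no direction for the list. Ift57 (6.49 ± 0.920 to 19.8 ± 0.742 FPKM) and Ift43 (0.540 ± 0.192 to 2.05 ± 0.691 FPKM) had the largest rises, Ift80 (31.9 ± 4.92 to 7.98 ± 0.530 FPKM) and Ift88 (1.13 ± 0.107 to 0.480 ± 0.161 FPKM) fell, and Kif7 itself stayed at or under 0.700 FPKM in every library.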

How the data were processed

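Per the file headers, the authors deposited 1 table per library with a gene identifier, symbol, locus and FPKM. Per the labels' protocols, FPKM came from Cuffdiff, and the submitters' processing notes name CASAVA, HISAT2 2.0.5, Cuffdiff 1.3.0 and 2.2.1 and the build mm9. The file positions match GRCm38 instead (99.94% of 26669 matched genes on the same chromosome, 91.14% inside the listed span), so positions are from GENCODE M21. Genes with no row counted as 0.

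The test was limma 3.58.1 (R 4.3.3) on the log2 scale after adding 1 FPKM, with a mean-variance trend, robust, two-sided and without a block. It covered the 11265 genes that reached 1 FPKM in 3 or more libraries, with Benjamini-Hochberg adjustment. Python 3.11.15 made the summaries. Members and lists were chosen with earlier results of these data known. All tested members are named, and from each list of related genes up to 2 called rises and 2 called falls, beside genes named with the member they work with.

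The mouse letters in the labels recur in both groups, which pairs the libraries by animal. Deviations from the group means correlated at 0.0394, 0.0306 and 0.131 within mice and from -0.132 to 0.0988 between mice. In the depth estimate 47.0 to 51.3% of low values lay within 0.15 of a whole number of fragments, where chance gives 30%, so depths are rough. Simulated data for Induced against Initial covered 11265 genes, of which 50 were changed at each fold. In these limma found 32% of changes of 1.5-fold, 78% of those of 2-fold, 88% for 4-fold and 98% for 8-fold. Of its 154 calls, 6 were false. In the real data 70.4% of tested genes were called, so these rates need not hold there. The alternatives changed the pseudocount, filter, scaling, block, moderation or libraries.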

Additional observations from a re-analysis of the deposited data

How the results depend on the processing

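The 11 mitotic kinesins were called higher under every alternative that tested them, and 10 were tested with the filter at FPKM 5, which removes Kif14. With the mouse as a replicate block the counts stayed at 11 mitotic and 5 other members called higher and 2 other members called lower, and the block changed no call. Leaving out single libraries gave 11 mitotic members called higher in every case, none lower, 4 other members called higher and 2 lower. With the filter at FPKM 5, which tests fewer genes, 2 other members were called higher and 1 lower. Without a filter 5 other members were called lower, the additional ones being Kif1a, Kif9 and Kif19a, all low. Those called higher also numbered 5 without a filter. Kif3b lost its call there (adjusted p = 0.0507), and a member not tested in the main fit was called higher in its place. The log2 fold change of Kif16b had the opposite sign after scaling by CD3 genes and Trdc (0.1945), without Initial library B (0.0601) and without Induced library B (0.0818; leaving out single libraries gave -0.0697 to 0.0818), and that of Kif1b with the same scaling (0.0976), and neither passed there. With that scaling 7 other members were called higher, the additional ones being Kif5b and Kif2a (0.28, adjusted p = 0.0437). The cause of these changes was not tested. Of 347 comparisons of single members with an alternative, 334 kept direction and side of the threshold. Levels under 1 FPKM are limited by depth.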
